A study of Mus musculus with 8 samples.

Results

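Mitochondrial ribosomal proteins are encoded in the nucleus by genes whose mouse symbols begin with Mrpl, for the large subunit, or Mrps, for the small subunit. The genes described here were taken from the raw count table by that symbol followed by a digit, with pseudogene symbols ending in -ps left out. The rule found 78 genes among the 49315 of the table, 49 with an Mrpl symbol and 29 with an Mrps symbol. All 78 were among the 16180 genes that passed the filter on low counts. The samples were hearts of C57BL/6 mice aged 8 weeks, 4 libraries labelled female and 4 labelled male, with no allele, agent or other factor named. Whether the libraries are of separate animals is not in the labels, so p-values measure the spread between these libraries, which may be technical. Nor do they name the chambers that were sampled, and RNA-seq of whole tissue cannot tell fewer cells of a type from less RNA per cell.

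The mitochondrial ribosome translates the small set of membrane proteins encoded by mitochondrial DNA, all of them subunits of the respiratory chain and ATP synthase. Its RNA comes from mitochondrial DNA, but every protein of it is made in the cytosol and imported, so its assembly draws on both genomes. Some of these proteins have counterparts in bacterial ribosomes, and others are specific to mitochondria. Heart muscle holds many mitochondria and relies on oxidative phosphorylation. Nuclear genes for mitochondrial proteins are textbook targets of the ETS-family factor GABP, of NRF1 and of YY1.

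Promoters in RefSeq's table for GRCm38.p6, each 250 bases before to 50 after a transcript start, were found for 69 of the 78 genes, with 75 promoters in all. The ETS-family motif CCGGAAG, searched on both strands, was in 26 of the 75 promoters (34.7%), against 15.5% of the promoters of all genes tested and 8.86% of all promoters in the table. The YY1 motif AAGATGG was in 13 (17.3%), against 6.65% of promoters of genes tested and 6.34% of all. The NRF1 motif GCATGCG was in 8 (10.7%), against 5.73% and 3.58%. At least 1 of the 3 motifs was in 38 promoters (50.7%), against 25.2% and 17.3%. Matches can overlap: the ETS-family motif ends in the 3 letters that begin the YY1 motif, and the ETS-family and NRF1 motifs can each overlap their own match on the opposite strand. Matches of the ETS-family and YY1 motifs that share those 3 bases were in 0 of the 75 promoters and in 5 of all promoters in the table. The ETS-family motif was in 31.2% of the large-subunit and 40.7% of the small-subunit promoters, the YY1 motif in 14.6% and 22.2%, and the NRF1 motif in 14.6% and 3.70%.

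Below are the 100 bases before the start for 4 of the genes, 5′ to 3′ on the gene's strand, with motif matches in capitals. Mrpl22, Mrpl43 and Mrpl52 were chosen after the matches were seen, as examples of each motif, and Mrpl28 because it is the gene whose sex difference passed the test. The stretches are chr11:58171564-58171663 on the + strand for Mrpl22, chr17:26123403-26123502 on the + strand for Mrpl28, chr19:45006443-45006542 on the − strand for Mrpl43 and chr14:54426809-54426908 on the + strand for Mrpl52.
Mrpl22: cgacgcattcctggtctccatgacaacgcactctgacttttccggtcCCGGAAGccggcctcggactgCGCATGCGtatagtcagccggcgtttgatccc
Mrpl28: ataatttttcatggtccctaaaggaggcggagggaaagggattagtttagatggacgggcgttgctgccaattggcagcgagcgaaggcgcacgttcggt
Mrpl43: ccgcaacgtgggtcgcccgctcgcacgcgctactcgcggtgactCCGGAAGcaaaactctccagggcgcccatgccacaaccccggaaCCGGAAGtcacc
Mrpl52: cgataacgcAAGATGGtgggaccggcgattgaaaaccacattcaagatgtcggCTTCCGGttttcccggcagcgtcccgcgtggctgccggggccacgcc
In Mrpl22 the ETS-family match began 53 bases before the start and the NRF1 motif was matched on both strands about 32 bases before it. Mrpl43 held the ETS-family motif at 56 and at 12 bases before the start. Mrpl52 held the YY1 motif 91 bases before the start and the ETS-family motif, on the opposite strand, 47 bases before it. None of the 3 motifs was in the stretch of Mrpl28, which says only that these letters are not there.

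Before the results, some libraries have to be named. Total counts were 32746054 to 35467832 in the female and 39612848 to 47097765 in the male libraries. The 9 cardiomyocyte markers summed to 83436 to 92640 CPM (read counts scaled by library size) over the 8 libraries, with 0 of them called different. The 7 white adipocyte markers were all called lower in males and summed to 72.3, 117, 133 and 77.7 CPM in female replicates 1 to 4 and to 18.2, 20.6, 13.2 and 39.7 CPM in male replicates 1 to 4. The 5 brown adipocyte markers summed to 138, 184, 221 and 130 CPM in the female and to 119, 125, 124 and 146 CPM in the male libraries. Of these 5, 4 were below 0 in males minus females, 2 of them called. The largest part of the sum, Ppargc1a at 82.7 to 114 CPM, was above 0 and not called (0.15, edgeR adjusted p = 0.31). None of these adipocyte markers was at 0 in any library, but the lowest values were of 1 count. These were Ucp1 at 0.023 CPM in male replicate 3 and Lep at 0.025 CPM in male replicate 2. By the sums, female replicates 2 and 3 were the highest of the 8 in both adipocyte lists. Male replicate 4 stood apart in the 4 atrial cardiomyocyte markers, which summed to 438 CPM there and to 2169 to 2634 CPM in the other libraries.

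All the genes were measured in every library, the fewest counts of any in a library being 57. To compare genes with one another, CPM was divided by the summed exon length in kilobases, and this level per length is given as mean ± SD over the 8 libraries. The median level of the 78 genes was 22.95 CPM per kb (25th to 75th percentile 10.5 to 38.7), against 2.90 CPM per kb for all genes tested. It lay at percentile 89.1 of the genes tested, and 76 of the 78 genes were above the median of those. The large-subunit genes had a median level of 24.0 CPM per kb and the small-subunit genes of 18.1 CPM per kb.

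Mrpl42, a mitochondria-specific protein of the large subunit, had by far the highest level, 397 ± 17.5 CPM per kb (SD, n = 8). Its level was 3.12-fold that of the next gene, Mrpl12, at 127 ± 9.70 CPM per kb, whose protein forms the flexible stalk that recruits translation factors. Mrpl34 followed at 103 ± 5.67 CPM per kb, Mrpl28 at 85.0 ± 5.81 and Mrpl14 at 79.9 ± 3.64, all 3 with counterparts in bacteria. In the small subunit the order began with Mrps21 at 124 ± 3.76 CPM per kb, followed by Mrps23 at 88.7 ± 6.30, Mrps16 at 80.6 ± 5.67, Mrps28 at 66.3 ± 3.33 and Mrps24 at 51.1 ± 3.63. Mrps21 and Mrps16 are counterparts of bacterial proteins, while Mrps23 is specific to mitochondria. The range over the 8 libraries of Mrpl42 did not overlap that of Mrpl12, but most neighbours in the order could not be separated: in 70 of the 77 neighbouring pairs the ranges overlapped.

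At the other end, Mrpl53 had 2.44 ± 0.373 CPM per kb (SD, n = 8), Mrps10 2.59 ± 0.107, Mrps22 4.48 ± 0.339, Mrpl19 5.01 ± 0.247, Mrpl33 5.57 ± 0.167 and Mrps25 5.86 ± 0.547. The summed exon length differed widely between the genes, from 566 to 8631 bases. Across the 78 genes, which are not independent replicates, Spearman's rho between exon length and level per length was −0.75, and between exon length and CPM 0.0040. The length is itself the divisor of the level, so part of the order rests on how much exon the annotation gives each gene. Where exon bases shared with other genes were left out of the length, Mrpl53 came to 20.3 CPM per kb and Mrps25 to 19.4. The counts were left as they were, so any reads counted in the shared bases stay in these values and raise them. The places of these 2 genes in the order are thus uncertain. Mrps34, with 1605 of its 2064 exon bases shared, would also rise, so the order of the small-subunit genes given above is uncertain too.

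**Figure D1:**
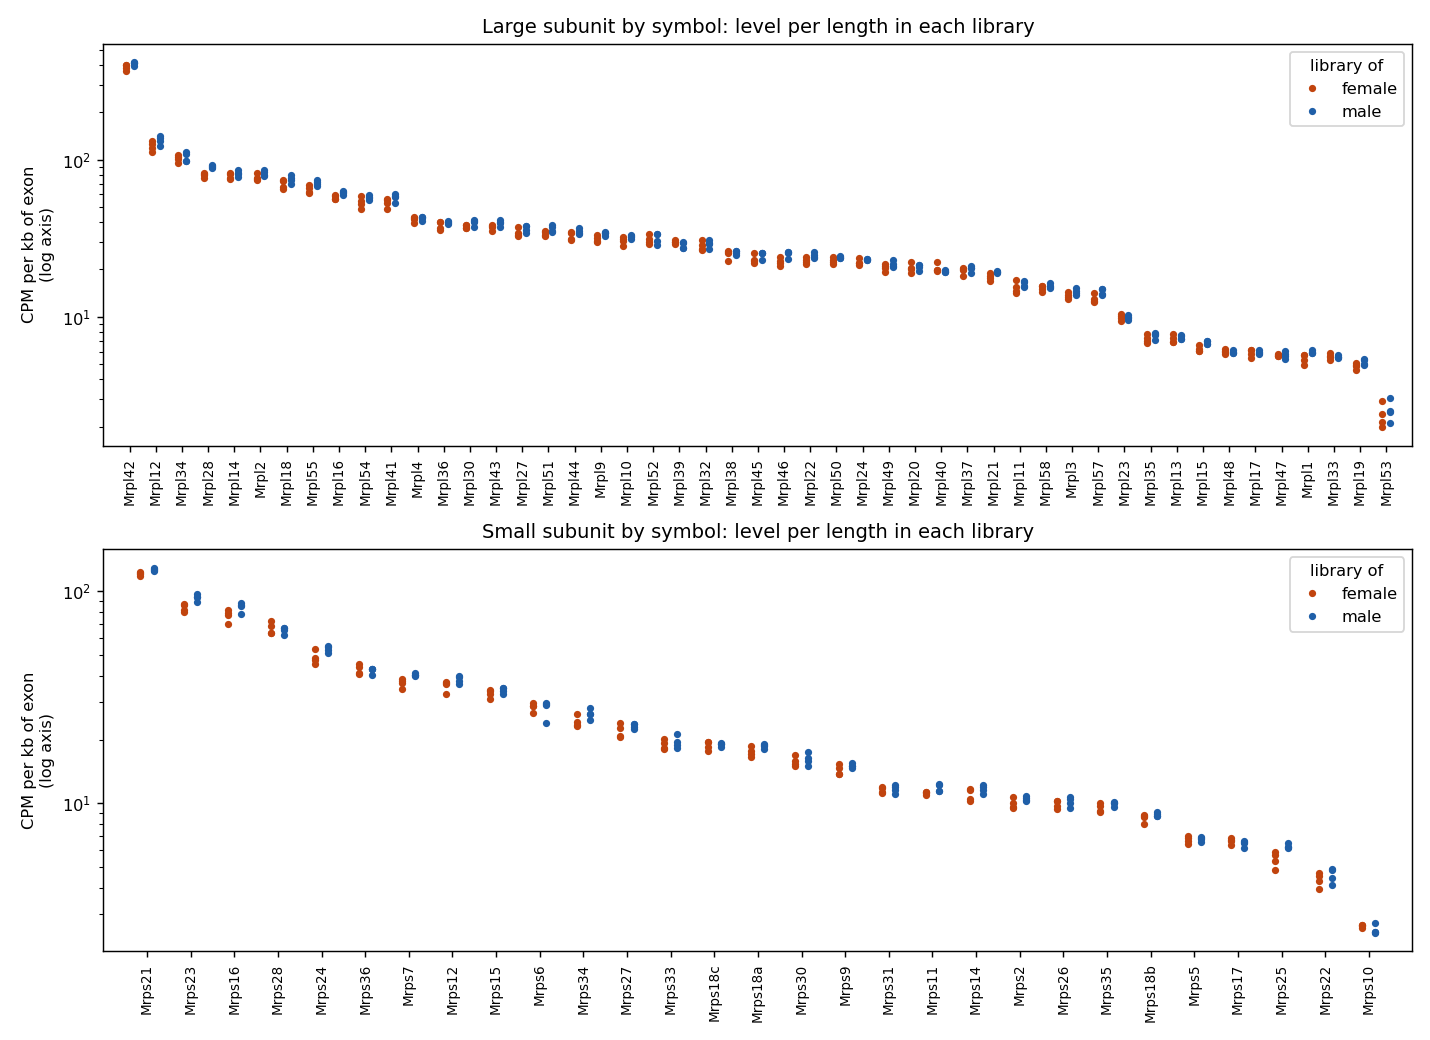
Level per length (CPM per kb of summed exon, log axis) of each large-subunit gene (top) and small-subunit gene (bottom), in order of the mean; each point is 1 library, orange for female and blue for male. Mrpl42 stands alone at 397 CPM per kb, and the points of most genes overlap those of their neighbours.

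The summed levels of the large-subunit and the small-subunit genes kept a nearly constant ratio between libraries, though sums can hide changes of single genes. Together the 78 genes held 0.464%, 0.432%, 0.440% and 0.454% of all counts in female replicates 1 to 4. In male replicates 1 to 4 they held 0.453%, 0.465%, 0.460% and 0.439%. The large-subunit genes summed to 3130, 2878, 2918 and 3083 CPM in female replicates 1 to 4 and to 3139, 3192, 3245 and 3087 CPM in male replicates 1 to 4. The small-subunit genes summed to 1452, 1326, 1360 and 1418 CPM in the female and to 1461, 1475, 1497 and 1417 CPM in the male libraries. For both subunits female replicates 2 and 3 were the lowest 2 of the 8 libraries and male replicate 3 the highest, and the sexes overlapped. The ratio of the sums, large over small, was 2.16, 2.17, 2.15 and 2.17 in the female and 2.15, 2.16, 2.17 and 2.18 in the male libraries. The highest ratio was thus 1.01-fold the lowest, while the sum of all 78 genes ranged 1.13-fold.

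**Figure D2:**
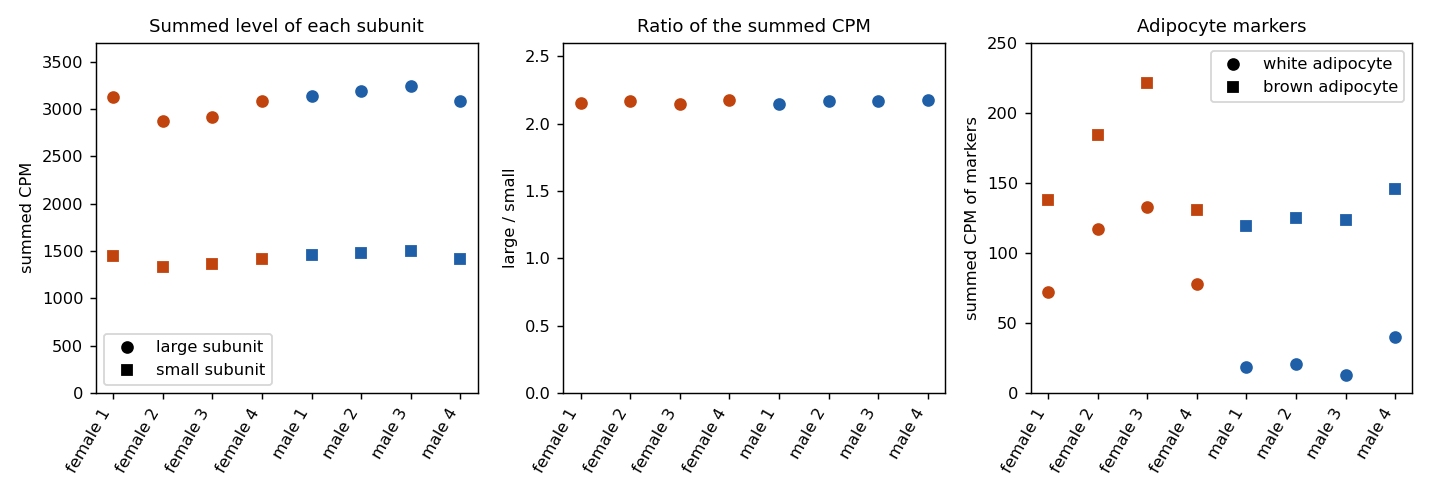
Left, summed CPM of the large-subunit (circles) and small-subunit (squares) genes in each library; middle, their ratio; right, summed CPM of the white (circles) and brown (squares) adipocyte markers; orange marks female and blue male libraries, and every axis starts at 0. The ratio stays between 2.15 and 2.18, and female replicates 2 and 3 are lowest on the left and highest on the right.

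Gene by gene, 44 of the 78 genes had their lowest value of all 8 libraries in female replicate 2 and 20 in female replicate 3. Male replicate 3 held the highest value of 28 genes and male replicate 2 of 14. In female replicate 1, 60 genes were above their own mean, and in female replicate 4, 39 were. In female replicates 2 and 3 only 4 and 7 genes were. In male replicates 1 to 4 the numbers were 57, 60, 74 and 36. Female replicates 1 and 4 were thus within the range of the male libraries, and male replicate 4 had fewer genes above the mean than either. The 2 female libraries that were low in the ribosomal protein genes were the same 2 that were high in adipocyte markers, and the part of the latter in the former was not tested. Within a sex the median SD of log2 CPM was 0.065 for these genes, against 0.108 over all genes tested. It was 0.066 over the 6301 genes in the same range of CPM, so the spread was ordinary for that range. Mrps21, a small-subunit protein, was the steadiest, at 0.025.

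**Figure D3:**
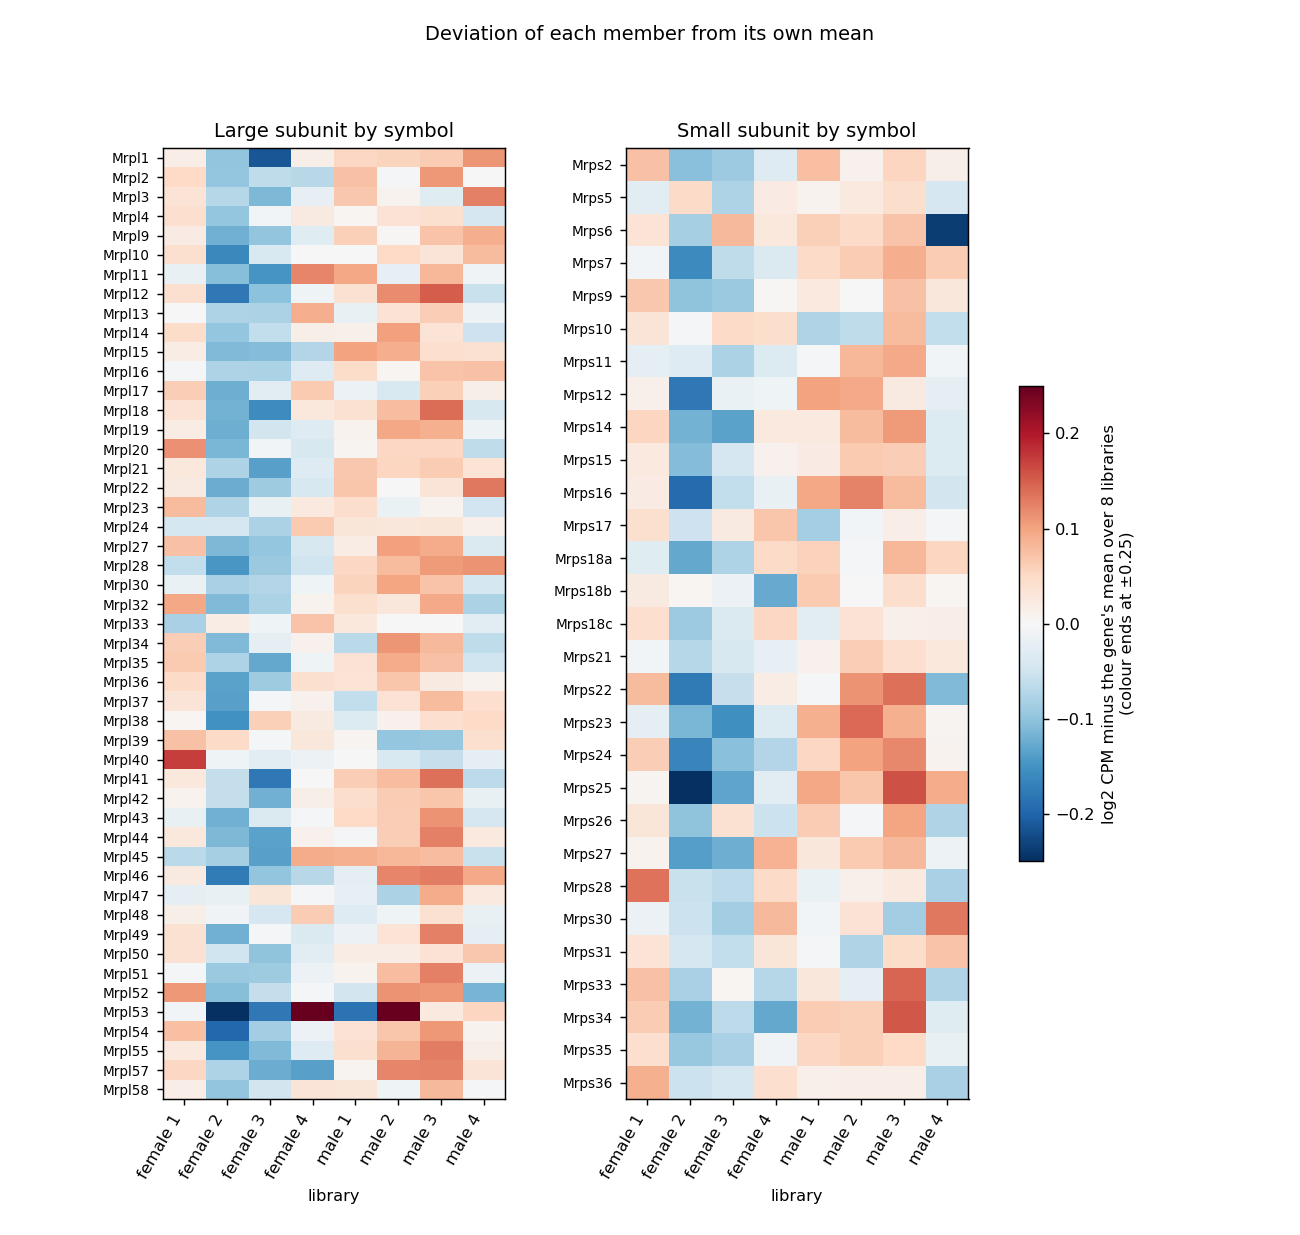
Deviation of log2 CPM from the gene's own mean over the 8 libraries, for each large-subunit (left) and small-subunit (right) gene; red is above the mean and blue below, and colours end at the limits of the scale. The columns of female replicates 2 and 3 are blue for nearly all genes, those of male replicate 3 are red for 74 of 78, and Mrps6 shows its lowest value in male replicate 4.

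The study's comparison is male against female, tested with edgeR over all 16180 genes, of which 3.79% were called at an adjusted p under 0.05, 2.03% with the males higher and 1.76% with the females higher. Of the 78 mitochondrial ribosomal protein genes 1, Mrpl28, was called higher in males and 0 were called higher in females. This count of calls is near the background share. At an unadjusted p under 0.05, 21 of the 78 (26.9%) were higher in males, against 10.1% of all genes tested and 14.3% of the 6301 genes in the same range of CPM, and 0 were higher in females, against 9.39% (19.5% in either direction). DESeq2 called 3 of the 78, Mrpl28, Mrps23 and Mrps25, all higher in males (6.33% of all genes it tested were called), and limma-voom called 1 (3.8% of all genes).

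The direction was shared by most of the genes, but the size was small. The log2 fold change, male minus female, was above 0 for 69 of the 78 genes (88.5%), against 49.7% of all genes tested and 56.9% of those in the same range of CPM. Its median was 0.07 (25th to 75th percentile 0.03 to 0.10) and its range −0.07 to 0.21, and the median of all genes tested was −0.00074. The genes vary together between libraries, so these counts are not 78 separate observations. The TMM scaling factors were 1.01 to 1.03 in the female and 0.970 to 0.996 in the male libraries. Before that scaling the 78 genes held on average 0.447% of counts in females and 0.454% in males. With DESeq2 size factors 68 genes were above 0, and with mitochondrially encoded genes left out of the scaling 69 were. The part of the scaling in the direction was not tested. With female replicates 2 and 3 both left out, a check added after the data were seen, 51 genes were above 0 and 27 below. The 51 were 65.4% of the 78, against 49.9% of all genes in that fit. The median then was 0.02, with 3 genes higher and 1 lower in males at an unadjusted p under 0.05. By edgeR 0 of the 78 were called, and 131 of all genes. These 2 libraries held the lowest of the 8 values in 44 and 20 of the 78 genes, so leaving them out lowers most log2 fold changes by construction. The check cannot show why these libraries were low. They were also the 2 highest in adipocyte markers. Other markers also moved with sex: the 5 fibroblast markers, all below 0, summed to 696 to 707 CPM in females and 587 to 662 CPM in males, with Lum called lower in males (−0.66, adjusted p = 0.00028). Of the skeletal muscle markers Acta1, also expressed in heart muscle, was called higher in males (0.69, adjusted p = 0.028), while Myh1 and Myh4 were at or near 0 in every library. Of the 4 endothelial markers 3 were above 0 and 1 below. Tie1 was called higher in males (0.20, adjusted p = 0.045), and Kdr, the 1 below, was not called by edgeR (−0.26, adjusted p = 0.062). The endothelial sum was 655 ± 42.7 CPM in females and 656 ± 29.7 CPM in males (SD, n = 4 each). The 4 red cell markers varied widely between libraries, from 543 CPM in female replicate 2 to 8581 CPM in female replicate 4, with 0 called. The part of these cell types in the difference was not tested.

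The subunits gave similar values. Of the 49 large-subunit genes 45 were above 0 and 4 below, with a median log2 fold change of 0.08, and 1 was called. Of the 29 small-subunit genes 24 were above 0 and 5 below, with a median of 0.07. None was called by edgeR or limma-voom, and 2 were by DESeq2. At an unadjusted p under 0.05, 7 (24.1%) were higher in males, against 10.1% of all genes tested. Among the large-subunit proteins with a bacterial counterpart 29 of 30 were above 0 (median 0.08), and among those specific to mitochondria 18 of 21 (median 0.08). In the small subunit 12 of 16 with a bacterial counterpart (median 0.07) and 10 of 10 specific to mitochondria (median 0.07) were above 0. No difference between these classes was tested.

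**Figure D4:**
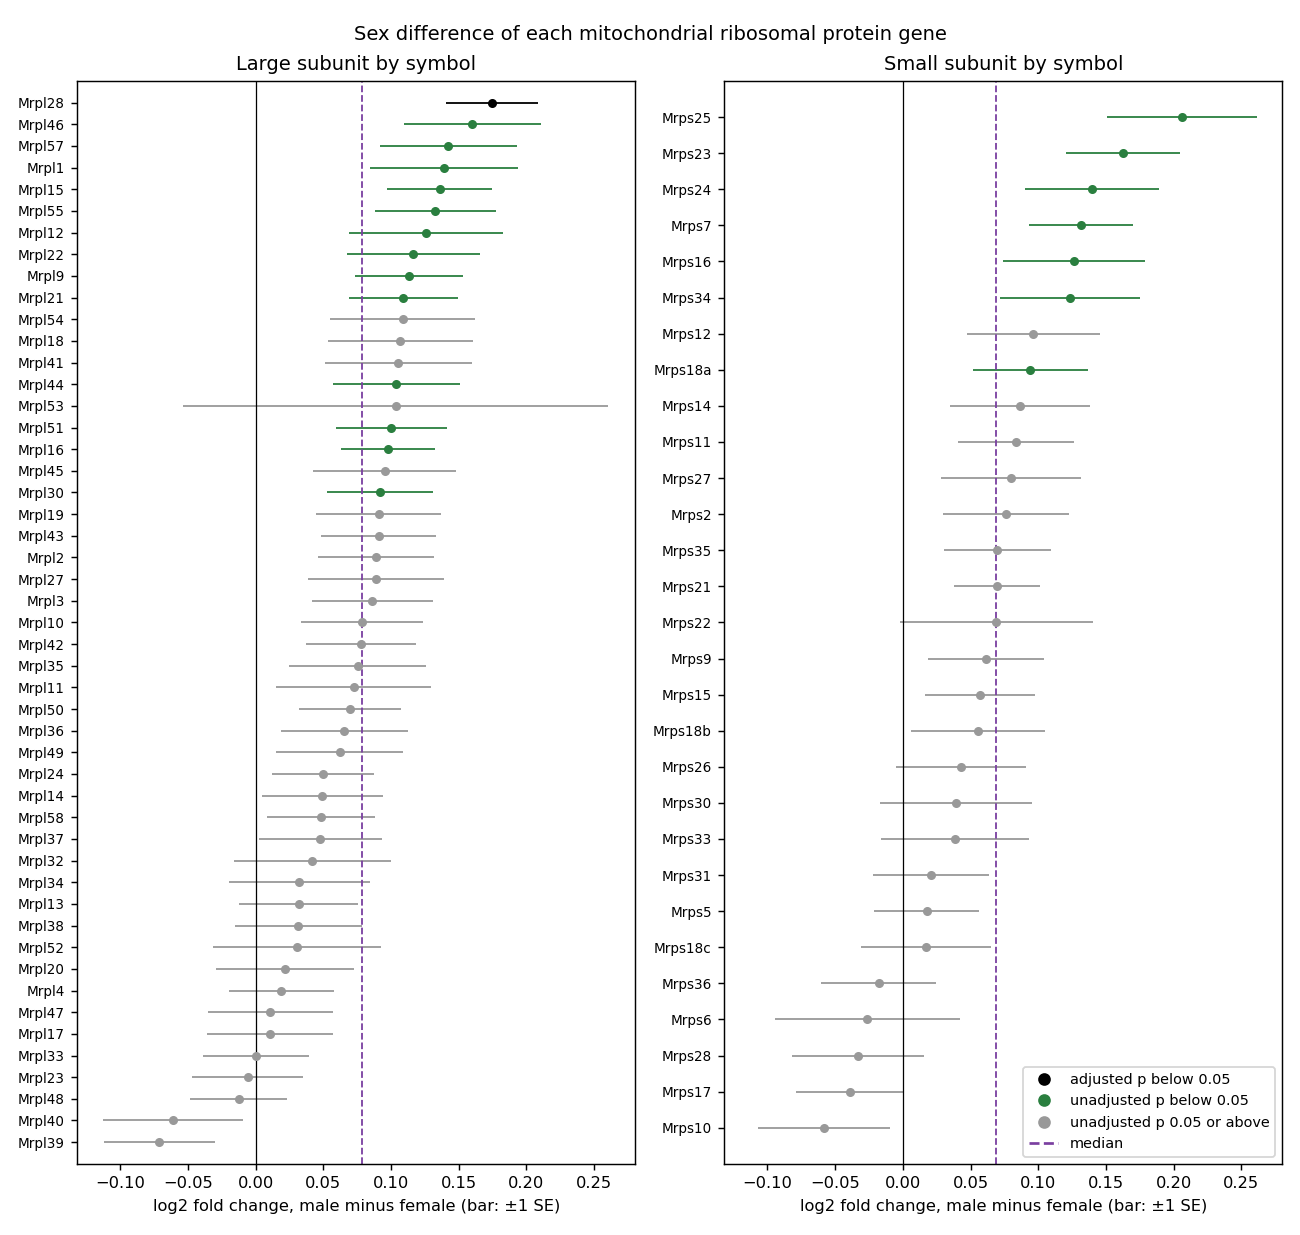
Log2 fold change, male minus female, of each large-subunit (left) and small-subunit (right) gene, with bars of ±1 SE from the edgeR fit on 4 libraries per sex; black marks an adjusted p below 0.05, green an unadjusted p below 0.05, and the dashed line is the subunit's median. Only Mrpl28 is black, and the medians lie at 0.08 and 0.07.

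Mrpl28 (ENSMUSG00000024181, chr17:26123520-26126613, + strand, GRCm38) encodes a large-subunit protein with a bacterial counterpart. It was at 104, 97.7, 101 and 104 CPM in female replicates 1 to 4 and at 112, 114, 116 and 117 CPM in male replicates 1 to 4. Every male library was above every female one. The means were 102 ± 3.01 CPM in females and 115 ± 2.20 CPM in males (SD, n = 4 each), 12.9% higher in males by the fit, a log2 fold change of 0.17 (SE 0.03, edgeR adjusted p = 0.018). The call was lost when female replicate 2 (adjusted p = 0.057), female replicate 3 (adjusted p = 0.052) or male replicate 3 (adjusted p = 0.061) was left out, and with female replicates 2 and 3 both left out the log2 fold change was 0.14 (adjusted p = 0.18).

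In 10 of the 78 genes (12.8%) every male library was above every female one, against 6.39% of all genes tested and 9.03% of those in the same range of CPM, and in 0 was the reverse true, against 5.66%. These were Mrpl1, Mrpl15, Mrpl16, Mrpl21, Mrpl28, Mrps7, Mrps11, Mrps21, Mrps23 and Mrps25. Apart from Mrpl28, none passed the edgeR test, and their values follow as measurements.

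Mrps23 (chr11:88204388-88211507) and Mrps25 (chr6:92169525-92184033) encode small-subunit proteins specific to mitochondria. Mrps23 was at 136, 128, 124 and 135 CPM in female and 147, 152, 147 and 139 CPM in male replicates 1 to 4. Its log2 fold change was 0.16 (SE 0.04, edgeR adjusted p = 0.057, DESeq2 adjusted p = 0.010), 11.9% higher in males. It is the small-subunit gene with the smallest p, and passed the edgeR threshold when male replicate 4 was left out (adjusted p = 0.042). Mrps25 had the largest log2 fold change of the 78 genes, 0.21 (SE 0.06, edgeR adjusted p = 0.068, DESeq2 adjusted p = 0.025). Mrps25 was at 38.6, 31.9, 35.01 and 37.7 CPM in the female and 41.0, 40.3, 42.9 and 40.9 CPM in the male libraries, the female values being the more spread. Of its exon length 69.8% is shared with Nr2c2 on the opposite strand, a nuclear receptor gene with a log2 fold change of −0.11 (edgeR adjusted p = 0.38). Without a stated strand setting the reads of the pair cannot be told apart.

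Mrps7, whose bacterial counterpart starts the assembly of the head of the small subunit, was at 79.6, 71.6, 76.4 and 78.0 CPM in female and 82.6, 83.5, 85.1 and 83.5 CPM in male replicates 1 to 4, a log2 fold change of 0.13 (adjusted p = 0.086). Mrpl15, a large-subunit protein with a bacterial counterpart, was at 56.3, 51.5, 51.6 and 52.9 CPM in females and 59.7, 59.2, 57.2 and 57.1 CPM in males. Its log2 fold change was 0.14 (adjusted p = 0.080), and it passed the threshold when female replicate 1 was left out (adjusted p = 0.047). Mrpl1, of the stalk beside which spent tRNA leaves the ribosome, was at 24.7, 22.7, 21.0 and 24.6 CPM in females and 25.3, 25.3, 25.5 and 26.3 CPM in males. The log2 fold change of Mrpl1 was 0.14 (adjusted p = 0.19), with the distance between the sexes set mainly by female replicates 2 and 3.

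Mrpl16 (0.10, adjusted p = 0.15), Mrpl21 (0.11, adjusted p = 0.16) and Mrps21 (0.07, adjusted p = 0.26) had smaller log2 fold changes and little spread. Mrps21 was at 91.4, 87.3, 89.2 and 90.4 CPM in females and 92.4, 95.7, 94.5 and 93.5 CPM in males, so that the highest female and the lowest male library lay close together. Mrps11, with a bacterial counterpart in the platform of the small subunit, had a log2 fold change of 0.08 (adjusted p = 0.31). Its neighbour Mrpl46, whose start lies 412 bases away on the opposite strand of chromosome 7, was at 34.0, 29.7, 31.3 and 31.9 CPM in females and 32.9, 36.4, 36.6 and 35.7 CPM in males, with a log2 fold change of 0.16 (adjusted p = 0.11). Male replicate 1 lay below female replicate 1 in Mrpl46, so the sexes overlapped there.

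In Mrpl42 and Mrpl12, the genes with the highest levels per length, the sexes overlapped. Mrpl42 was at 266, 253, 243 and 267 CPM in female and 272, 276, 277 and 261 CPM in male replicates 1 to 4, with a log2 fold change of 0.08 (adjusted p = 0.32). Mrpl12 was at 199.9, 172, 181 and 193 CPM in females and 199.7, 211, 216 and 187 CPM in males, with a log2 fold change of 0.13 (adjusted p = 0.25). In both genes female replicates 2 and 3 were lowest, and male replicate 4 fell among the female values. Mrps24 was at 78.0, 66.6, 69.5 and 71.0 CPM in females and 77.5, 80.1, 81.2 and 75.1 CPM in males, with a log2 fold change of 0.14 (adjusted p = 0.15). Mrps16 (0.13, adjusted p = 0.21) and Mrpl57 (0.14, adjusted p = 0.15) also had values at the upper end of their subunits, while Mrpl14 (0.05, adjusted p = 0.60) and Mrpl34 (0.03, adjusted p = 0.79) did not.

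The 9 genes with a log2 fold change below 0 were Mrpl39, Mrpl40, Mrps10, Mrps17, Mrps28, Mrps6, Mrps36, Mrpl48 and Mrpl23, and none had an unadjusted p under 0.05. Mrpl39, a large-subunit protein related to a tRNA synthetase, had the lowest value at −0.07 (adjusted p = 0.37). It was at 77.5, 76.2, 73.5 and 75.1 CPM in female and 74.0, 68.9, 69.0 and 75.8 CPM in male replicates 1 to 4, so that male replicates 2 and 3, the highest for most genes, were the lowest for Mrpl39. Mrpl40 was at 27.2, 24.0, 23.7 and 23.9 CPM in females and 24.2, 23.5, 23.2 and 23.7 CPM in males, with a log2 fold change of −0.06 (adjusted p = 0.56) and female replicate 1 above all other libraries. Mrps10 (−0.06, adjusted p = 0.56), Mrps17 (−0.04, adjusted p = 0.64), Mrps28 (−0.03, adjusted p = 0.76) and Mrps6 (−0.03, adjusted p = 0.88) are counterparts of bacterial small-subunit proteins. Mrpl33 was level between the sexes at 40.8 ± 1.78 CPM in females and 40.8 ± 0.596 CPM in males (SD, n = 4 each).

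Several symbols do not match the place of the protein. Mrps30 and Mrps18a sit in the large subunit despite their names, and Mrps36 is a subunit of the 2-oxoglutarate dehydrogenase complex, not of the ribosome. Mrps36 had a log2 fold change of −0.02 (adjusted p = 0.86). Grouped by place, 47 of 51 large-subunit and 22 of 26 small-subunit genes were above 0, with medians of 0.08 and 0.07. The 3 paralogs of bacterial S18 are Mrps18a, Mrps18b and Mrps18c, the latter 2 in the small subunit. Mrps18a had a level per length of 18.1 ± 0.920 CPM per kb and Mrps18c of 18.9 ± 0.630, and Mrps18b was lower at 8.69 ± 0.338 (SD, n = 8). Their log2 fold changes were 0.09 (adjusted p = 0.25), 0.02 (adjusted p = 0.89) and 0.06 (adjusted p = 0.59) in that order. Mrps30 had 0.04 (adjusted p = 0.76).

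The genes lie on 17 autosomes, 11 of them on chromosome 11, 8 on chromosome 17 and 7 on chromosome 6, and none on the X or Y chromosome. The start of 30 of the 78 (38.5%) lay within 1000 bases of the start of a tested gene on the opposite strand, against 17.8% of all genes tested. Such a pair is Mrps12, of the decoding centre of the small subunit, with Sars2, the mitochondrial seryl-tRNA synthetase gene. Their starts are 172 bases apart, and their log2 fold changes were 0.10 and −0.08. Mrpl43, whose promoter stretch is shown above, starts 116 bases from Twnk, the helicase of mitochondrial DNA.

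Exon bases were shared with other genes in 31 of the 78 genes, and over 25% of the length in 7. These were Mrpl53 (88.0%), Mrps34 (77.8%, mostly with Mapk8ip3), Mrps25 (69.8%), Mrps30 (37.8%), Mrpl19 (36.0%), Mrps18b (30.5%) and Mrpl24 (26.3%). Their counts are uncertain to that extent. Mrps34, a mitochondria-specific small-subunit protein, had a log2 fold change of 0.12 (adjusted p = 0.22), Mrpl19 of 0.09 (adjusted p = 0.31) and Mrpl24 of 0.05 (adjusted p = 0.51). Mrpl53, at 1.90, 1.56, 1.68 and 2.30 CPM in females and 1.67, 2.38, 1.94 and 1.98 CPM in males, had the widest spread, with a log2 fold change of 0.10 and an SE of 0.16. Across the 78 genes Spearman's rho between the shared percentage and the log2 fold change was 0.14, and between mean CPM and the log2 fold change 0.23.

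Other genes of mitochondrial translation were described from lists chosen by function. The 5 ribosomal proteins with other symbols, Dap3, Ptcd3, Chchd1, Aurkaip1 and Gadd45gip1, were all above 0, with a median log2 fold change of 0.07. None was called by edgeR, DESeq2 or limma-voom, and 1 (20%) was higher in males at an unadjusted p under 0.05, against 10.1% of all genes tested. That gene was Ptcd3, an RNA-binding protein of the small subunit, at 0.12 (adjusted p = 0.25). Of 13 initiation, elongation and release factors and their helpers, 11 were above 0 with a median of 0.08. None was called by edgeR or DESeq2. At an unadjusted p under 0.05, 5 (38.5%) were higher in males, against 10.1% of all genes tested, and 0 were lower. Tsfm, the exchange factor of the elongation factor Tufm, had the smallest p, with a log2 fold change of 0.12 (adjusted p = 0.14), and Tufm was at 0.11 (adjusted p = 0.14).

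Of 28 factors that assemble or modify the mitochondrial ribosome, 22 were above 0, with a median of 0.05. None was called by edgeR and 2 were by DESeq2 (6.33% of all genes it tested). At an unadjusted p under 0.05, 4 (14.3%) were higher and 1 (3.57%) lower in males, against 10.1% and 9.39% of all genes tested. Spg7, a subunit of the inner-membrane protease that processes Mrpl32, lay just outside the threshold. It was at 125, 123, 129 and 125 CPM in female and 138, 133, 140 and 148 CPM in male replicates 1 to 4, a log2 fold change of 0.15 (edgeR adjusted p = 0.050025, DESeq2 adjusted p = 0.0098).

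Of the 17 mitochondrial tRNA synthetases, which charge tRNAs with amino acids, 2 were called higher in males, against 2.03% of all genes tested. None was called higher in females (1.76% of all genes). Of the 17, 11 were above 0 (64.7%, against 49.7% of all genes), with a median of 0.04. Lars2, the leucyl-tRNA synthetase, was at 431, 342, 336 and 380 CPM in female and 460, 478, 461 and 484 CPM in male replicates 1 to 4. It rose by 0.34 on the log2 scale in males (SE 0.07, adjusted p = 0.021), and the call was lost without female replicate 2, female replicate 3 or male replicate 2. Fars2, the phenylalanyl-tRNA synthetase, was at 59.3, 56.0, 59.1 and 57.5 CPM in females and 64.4, 63.3, 66.4 and 68.2 CPM in males. It was higher in males by 0.18 (adjusted p = 0.024), and the call was lost without female replicate 2, female replicate 4, male replicate 3 or male replicate 4. With female replicates 2 and 3 both left out the log2 fold changes were 0.21 for Lars2 (adjusted p = 0.14) and 0.17 for Fars2 (adjusted p = 0.17).

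Of 16 genes for mitochondrial transcription and the regulators of nuclear genes for mitochondria, 12 were above 0, with a median of 0.06. Against 3.79% of all genes tested, 1 of the 16 was called. It was Ppargc1b, the coactivator PGC-1beta, and it was higher in females. Ppargc1b was at 32.9, 40.5, 40.8 and 35.1 CPM in female and 28.7, 30.0, 25.6 and 26.0 CPM in male replicates 1 to 4, a log2 fold change of −0.44 (SE 0.08, adjusted p = 0.011), or 1.36-fold higher in females. The call held in all 8 fits that left out 1 library, but with female replicates 2 and 3, its highest 2, both left out the value was −0.31 (adjusted p = 0.096). The genes of the factors whose motifs were searched, Gabpa (0.0084, adjusted p = 0.93), Nrf1 (0.01, adjusted p = 0.91) and Yy1 (0.02, adjusted p = 0.81), were not called.

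The genes of the 13 proteins made by the mitochondrial ribosome were all above 0, with a median log2 fold change of 0.28. Of these, 9 were called higher in males, against 2.03% of all genes tested. The smallest p was that of mt-Nd4, a subunit of complex I, at 6953, 6953, 6532 and 7063 CPM in female and 8356, 8412, 8541 and 8499 CPM in male replicates 1 to 4. Its log2 fold change was 0.30 (SE 0.03, adjusted p = 0.00075). The other called genes were mt-Nd1, mt-Nd2, mt-Nd3, mt-Cytb, mt-Co1, mt-Co2, mt-Co3 and mt-Atp6. The calls of mt-Nd4, mt-Cytb, mt-Co1, mt-Co2 and mt-Atp6 held in all 8 fits that left out 1 library, and that of mt-Co3 was lost without male replicate 3. The call of mt-Nd3 was lost without female replicate 1, male replicate 2 or male replicate 3. That of mt-Nd2 was lost without female replicate 1 or 3 or male replicate 2, 3 or 4, and that of mt-Nd1 without female replicate 1, 2 or 3 or male replicate 1, 2 or 3. With female replicates 2 and 3 both left out only mt-Nd4 (0.27, adjusted p = 0.010), mt-Cytb (0.23, adjusted p = 0.016) and mt-Co1 (0.22, adjusted p = 0.016) of the 9 were called, and the other 6 had adjusted p from 0.066 (mt-Co3) to 0.15 (mt-Nd1). Genes with near-identical nuclear copies, among them mt-Nd3, mt-Co2, mt-Co3 and mt-Atp6 at 6.70 to 16.0 CPM, are uncertain in these counts. The uncalled mt-Atp8 and mt-Nd4l were lower still, at 2.04 to 4.64 CPM. The median of the 13 is the value of mt-Nd4l (adjusted p = 0.34). The genes at 1723 CPM or more in every library lay between 0.18 (mt-Nd5) and 0.30 (mt-Nd4). The sizes of these changes and those of the ribosomal proteins were not tested against each other, and the mitochondrial ribosomal RNAs were not analysed here.

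**Figure D5:**
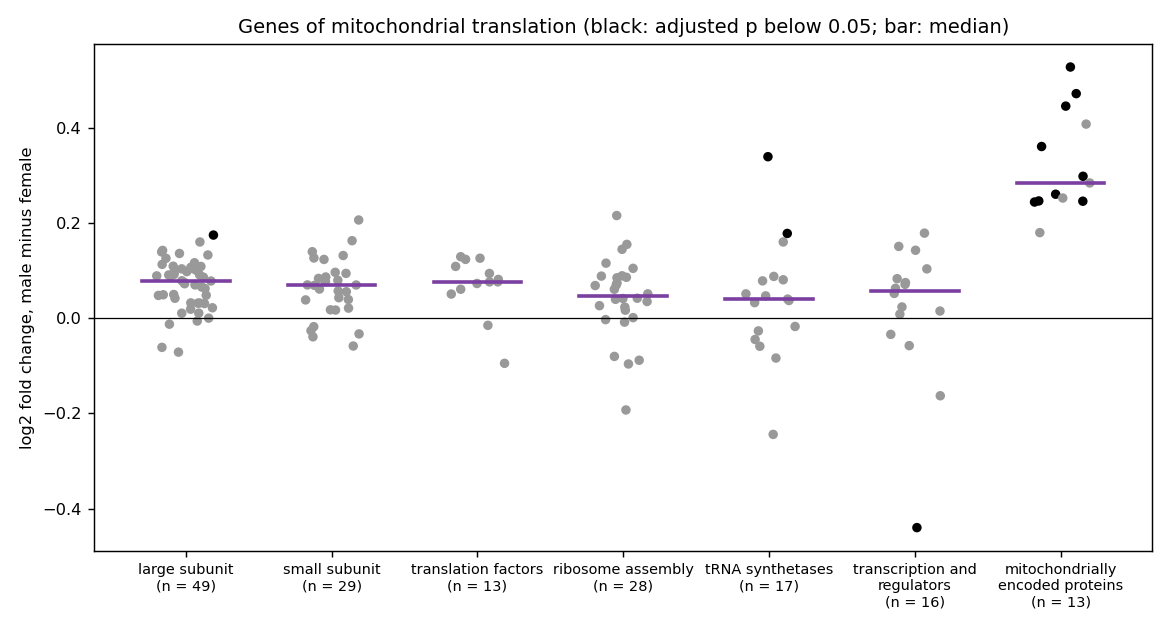
Log2 fold change, male minus female, of the large- and small-subunit genes and of the other lists of mitochondrial translation; each point is 1 gene, black where the edgeR adjusted p is below 0.05, and the bar is the list's median. The ribosomal protein genes lie close to their medians of 0.08 and 0.07, Ppargc1b lies lowest at −0.44, and the mitochondrially encoded proteins lie highest with a median of 0.28.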

How the data were processed

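RNA from hearts, extracted with Trizol, was made into libraries from 1 µg of total RNA with an Illumina TruSeq kit, per the labels' protocols. The authors deposited raw counts per gene. Trimmomatic 0.36, STAR 2.5.2b, featureCounts of Subread 1.5.2 and GRCm38 (mm10) are named per the submitters' processing notes. Not given in the sources used here are which annotation release was counted, whether strand was used, and how multi-mapping reads were handled. Exon coordinates and lengths are those of the deposited per-sample tables, and a deposited normalized table was not used.

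Groups came from the labels. Genes with low counts were removed by filterByExpr at a minimum count of 10 and a minimum total of 15, and the others were scaled by TMM and tested, male minus female, with the quasi-likelihood test of edgeR 4.0.16 in R 4.3.3, with a Benjamini-Hochberg adjusted p under 0.05 called. Values in CPM are per scaled library, with a prior count of 2 on the log2 scale. Alternatives were DESeq2 1.42.0 (its test and its size factors), limma-voom (limma 3.58.1), no filter, mitochondrially encoded genes left out of the scaling, the replicate number as a block, and each library left out. The scripts were checked on simulated data.

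Genes were named by rule: called genes; in each subunit the 5 highest and 3 lowest levels per length, the 4 largest log2 fold changes each way (mean CPM of at least 5) and the smallest p; up to 8 whose sexes do not overlap; those whose symbol does not match their place; those with over 25% shared exon; and the called and smallest-p genes of the other lists. Further genes are named where single libraries, shared starts or promoters are described, and were chosen after their values were seen. The genes and lists were chosen with earlier results of these data known. Mtrfr of the translation factors was not analysed here.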

Additional observations from a re-analysis of the deposited data

Results flagged for a closer look

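Single libraries far from the other 3 of their sex were looked for with Dixon's test in the 2 sexes of 78 genes and of summed values, 160 groups in all, of which chance would mark about 1 in 20, that is 8. It marked 8. In 5 of them male replicate 4 was the lowest male library. These were Mrps6, a small-subunit protein with a bacterial counterpart, at 25.1 CPM against 30.7 to 31.2 in the other males, Mrpl45 at 59.9 CPM against 65.7 to 66.2, Mrps35 at 82.9 CPM against 86.9 to 87.5, Mrps36 at 51.2 CPM against 54.6 to 54.8, and Mrpl24 at 51.6 CPM against 52.1 to 52.2. Male replicate 4 is also the library low in atrial cardiomyocyte markers (438 CPM), and whether that bears on these genes was not tested. Male replicate 3 was the highest male library in Mrps10, at 22.1 CPM against 19.9 to 20.1. Among the females Mrpl40 was highest in replicate 1, at 27.2 CPM against 23.7 to 24.0, and Mrps12 was lowest in replicate 2, at 34.1 CPM against 38.1 to 38.9.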

How the results depend on the processing

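The count of mitochondrial ribosomal protein genes called, 1 and higher in males, was 3 without the filter on low counts and 3 with DESeq2, 0 with female replicates 2 and 3 both left out (chosen after the data were seen), and 0 to 2 with each library left out. It was 0 without female replicate 2, female replicate 3 or male replicate 3, and 2 without female replicate 1 or male replicate 4. Over all genes 613 were called, 964 with DESeq2, 131 without female replicates 2 and 3, and 315 to 490 with each library left out, the lower counts being without female replicate 2 (354), female replicate 3 (379) and male replicate 3 (315). Without the filter on low counts 503 of all genes were called higher in males and 414 higher in females. No gene of the 78 was called higher in females in any of these fits. Without female replicates 2 and 3 the median log2 fold change was 0.02 (0.022) in the large and 0.01 (0.015) in the small subunit, and with each library left out 0.06 to 0.10 and 0.05 to 0.09. Without shared exon bases in the length, and with the counts unchanged, the median level was 24.96 CPM per kb.

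With the replicate number as a block 0 of the 78 and 427 of all genes were called (Mrpl28 had an adjusted p of 0.051). No pairing by number was seen: same-numbered libraries had correlations of 0.02, −0.02, 0.05 and −0.05 in their deviations. Of the 8 libraries 0 correlated best with their own number. A weak shared effect could be missed in so few libraries, and the labels do not say whether the numbers pair them.

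Among the 36 named genes 508 of the alternative values kept direction and call, 21 changed sign, 6 gained and 5 lost a call. The sign changed in the following genes, none of them called. Mrpl33 came to −0.00039 with DESeq2 size factors and −0.00051 with DESeq2. Without female replicates 2 and 3 Mrpl14 came to −0.0076, Mrpl34 to −0.022, Mrpl53 to −0.076, Mrps18c to −0.040, Mrps22 to −0.015 and Mrps30 to −0.015. With each library left out, the log2 fold change ranged from −0.034 to 0.020 for Mrpl23, −0.026 to 0.023 for Mrpl33, −0.00091 to 0.059 for Mrpl34, −0.030 to 0.0055 for Mrpl48, −0.060 to 0.044 for Mrps6, −0.012 to 0.036 for Mrps18c, −0.061 to 0.0083 for Mrps28, −0.00045 to 0.074 for Mrps30 and −0.041 to 0.0097 for Mrps36. The causes were not tested. Mrpl53 had the fewest counts, as few as 57 in a library, and 88.0% of its exon length is shared, mostly with Gm42688 on the same strand. The part of that overlap in its low counts was not tested.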
